A study of Mus musculus with 6 samples.

Results

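A set of 10 genes that regulate or mark plasma cells was followed in long-term hematopoietic stem cells (LT-HSCs) sorted from mouse bone marrow. They were chosen by gene name, 10 of the 55487 genes in the deposited table, and comprised the regulators Prdm1, Irf4, Xbp1 and Pou2af1, the secretory pathway genes Mzb1, Derl3, Fkbp11 and Txndc5, the surface proteoglycan gene Sdc1 and the antibody joining chain gene Jchain. RNA was sequenced in 3 libraries from mice given carnosine, a natural dipeptide of beta-alanine and histidine, and in 3 libraries from mice given saline. All mice were wild type and none had been irradiated. The sources used here do not give strain, age, sex, dose, duration of treatment or the number of mice behind a library. The sort took lineage-negative cells carrying Sca-1 and c-Kit but neither CD34 nor Flk2 on the surface. All 10 genes passed the filter on low counts.

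Plasma cells are the end stage of the B lineage and secrete antibody at a high rate. Blimp-1, the product of Prdm1, and IRF4 switch B cells to this fate and shut down the B cell program, while XBP1, made from an mRNA that the endoplasmic reticulum (ER) stress sensor IRE1 splices, enlarges the ER for secretion. Bone marrow is a long-term home of plasma cells, and a lineage-negative sort is meant to leave mature blood cells out. None of these genes is private to plasma cells: Xbp1, Txndc5 and Sdc1 in particular are read in many cell types. In bulk RNA, more cells of a type and more RNA per cell cannot be told apart.

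The libraries held 10304539 to 13251332 counts, so that 3 counts were 0.227 to 0.291 CPM (counts scaled to library size by TMM). These 3 counts are about the 95% limit for a count of 0 when only the upper side is considered. Such limits, and the exact 95% Poisson intervals given for single libraries, cover counting error only. Among the genes with at least 60 counts in a group, the spread between its libraries, as variance over that expected from counting, had a median of 1.31 in carnosine and 1.30 in saline, where counting alone gives 0.693. Whether libraries came from separate mice is not in the labels, so the p-values below measure the spread between these libraries, which may be technical. The 10 stem cell and gate genes summed to 2732 to 2894 CPM in carnosine and 2786 to 2808 CPM in saline. The gate left out cells with CD34 or Flk2 on the surface, but their RNAs were abundant: Cd34 had 861 ± 14.9 CPM in carnosine and 857 ± 24.5 CPM in saline, and Flt3, which encodes Flk2, 775 ± 11.03 CPM in carnosine and 818 ± 15.1 CPM in saline (SD, n = 3 each).

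In LT-HSCs from carnosine-treated mice, 5 of the 10 genes rose (Jchain, Prdm1, Pou2af1, Mzb1 and Irf4), 1 fell (Sdc1) and 4 did not pass the test (Xbp1, Derl3, Fkbp11 and Txndc5), at an adjusted p under 0.05 by edgeR's quasi-likelihood test. Of the 15298 genes tested, 17.9% were called, 9.51% higher and 8.39% lower. The median log2 fold change of the 10 genes was 0.61, beside 0.0009 over all genes tested. A rise of 1 or more on the log2 scale was called for 3 of the 10 (Jchain, Prdm1 and Pou2af1) and for 1.24% of all genes tested. The carnosine and saline libraries did not overlap in CPM for 7 of the 10, 6 higher and 1 lower, whereas 38.7% of all genes tested did not overlap, 19.7% higher and 19.0% lower. Without 1 library the number that rose was 3 (without carnosine replicate 3 or saline replicate 1) or 4 (without any of the other 4), and the 4 without carnosine replicate 1 were Irf4, Mzb1, Jchain and Txndc5, with Prdm1 and Pou2af1 lost. Sdc1 fell in every such fit.

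**Figure D1:**
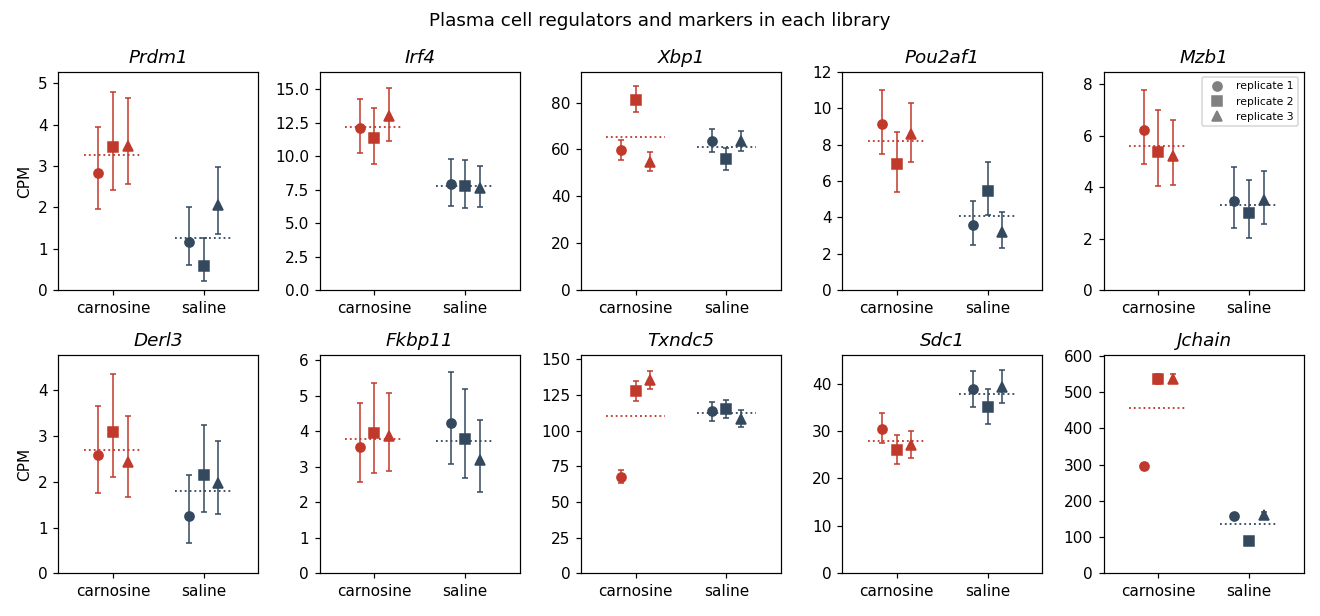
Level of each of the 10 genes in each library (CPM on the y axis; marker shape gives the replicate, bars the exact 95% Poisson interval, dotted lines the group mean). The carnosine libraries lie above all saline libraries for Prdm1, Irf4, Pou2af1, Mzb1, Derl3 and Jchain and below them for Sdc1, and carnosine replicate 1 stands apart for Txndc5 and Jchain.

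The promoters of Prdm1, Irf4, Pou2af1 and Jchain are shown because these are the 4 genes that rose and have a RefSeq promoter entry. Each line holds 250 bases before to 50 bases after the RefSeq start on the gene's strand (GRCm38.p6), for Prdm1 at chr10:44458699-44458998 (minus), Irf4 at chr13:30748983-30749282 (plus), Pou2af1 at chr9:51213440-51213739 (plus) and Jchain at chr5:88527848-88528147 (minus). Capitals mark 3 motifs on either strand: CCACG, part of the element read by ATF6 and XBP1, ACGTG, a core shared by many basic leucine zipper factors, and TGCAAAT, the core of the octamer at which the Pou2af1 product assists Oct factors. CCACG and ACGTG can overlap.
Prdm1: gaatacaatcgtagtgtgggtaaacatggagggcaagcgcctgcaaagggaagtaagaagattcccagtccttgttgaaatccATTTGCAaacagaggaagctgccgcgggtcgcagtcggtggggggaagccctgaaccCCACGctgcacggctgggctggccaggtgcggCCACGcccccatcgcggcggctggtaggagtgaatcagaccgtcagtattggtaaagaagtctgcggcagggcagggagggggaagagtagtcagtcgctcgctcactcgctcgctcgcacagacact
Irf4: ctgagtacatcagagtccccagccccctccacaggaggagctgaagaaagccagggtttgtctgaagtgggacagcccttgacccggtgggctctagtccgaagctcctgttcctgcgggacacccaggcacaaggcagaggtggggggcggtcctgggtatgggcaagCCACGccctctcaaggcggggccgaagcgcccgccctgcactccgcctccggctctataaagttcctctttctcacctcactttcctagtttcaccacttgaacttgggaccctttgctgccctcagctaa
Pou2af1: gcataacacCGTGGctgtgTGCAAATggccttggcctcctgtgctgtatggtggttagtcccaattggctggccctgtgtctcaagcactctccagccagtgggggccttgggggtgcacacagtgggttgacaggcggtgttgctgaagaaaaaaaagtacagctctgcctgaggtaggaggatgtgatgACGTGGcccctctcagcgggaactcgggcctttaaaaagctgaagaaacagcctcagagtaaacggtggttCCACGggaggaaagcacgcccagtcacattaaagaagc
Jchain: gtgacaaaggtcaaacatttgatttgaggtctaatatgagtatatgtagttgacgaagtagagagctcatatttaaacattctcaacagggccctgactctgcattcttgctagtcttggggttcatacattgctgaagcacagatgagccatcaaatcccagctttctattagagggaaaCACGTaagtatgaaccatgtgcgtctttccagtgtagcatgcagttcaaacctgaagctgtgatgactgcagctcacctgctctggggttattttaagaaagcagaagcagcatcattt
The octamer core stood in the windows of Prdm1 and Pou2af1, and in 4.02% of all 32851 promoter entries. CCACG occurred at 2 places in Prdm1, 3 in Pou2af1 and 1 in Irf4, and in 32.8% of entries. Genes that did not rise held it too, with 1 in Sdc1, 3 in each of 2 of the 3 Txndc5 entries and 2 in 1 of the 2 Fkbp11 entries, while the Xbp1 window held none of the motifs. The Jchain window held 1 ACGTG, a motif of 19.6% of entries, and neither of the others. The Derl3 window, whose gene did not pass the test, held 3 CCACG and 2 ACGTG. Both of these ACGTG lay in a single palindrome, CACGTG, which stood in 7.15% of entries. These are matches of letters, and binding was not measured. The RefSeq start of Prdm1 lies inside the longer GENCODE M21 gene.

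Irf4 encodes the transcription factor that drives Prdm1 in activated B cells (ENSMUSG00000021356, GRCm38 chromosome 13, 30749226 to 30766976). It had 146, 118 and 171 counts, or 12.1, 11.3 and 12.96 CPM, in the carnosine libraries, against 82, 80 and 100 counts, or 7.89, 7.77 and 7.58 CPM, in the saline libraries. All carnosine libraries were above all saline libraries, and the saline values were close to each other. The exact intervals of carnosine replicate 2 (9.39 to 13.6 CPM) and saline replicate 1 (6.27 to 9.79 CPM) overlapped. The mean was 12.1 ± 0.81 CPM in carnosine and 7.75 ± 0.15 CPM in saline (SD, n = 3 each), a rise of 0.65 on the log2 scale (SE 0.10, edgeR adjusted p = 0.00464). The call held without any 1 library (adjusted p 0.0113 to 0.0224).

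Prdm1 encodes Blimp-1, the repressor that ends the B cell program (ENSMUSG00000038151, chromosome 10, 44437177 to 44528501). It was the lowest of the 10 genes per length, with 34, 36 and 46 counts in carnosine and 12, 6 and 27 counts in saline. On the CPM scale these were 2.82, 3.46 and 3.49 in carnosine, against 1.15, 0.583 and 2.05 in saline. The groups did not overlap, but the exact interval of carnosine replicate 1 (1.95 to 3.94 CPM) overlapped that of saline replicate 3 (1.35 to 2.98 CPM). Prdm1 rose by 1.31 on the log2 scale (SE 0.36, edgeR adjusted p = 0.0444). That call was lost without carnosine replicate 1, 2 or 3 (adjusted p = 0.0741, 0.101 and 0.111) and without saline replicate 1 or 2 (0.119 and 0.0749), and the fold change without saline replicate 3, which kept the call, was 1.89 (adjusted p = 0.0161).

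Pou2af1 encodes OCA-B, a lymphoid coactivator that binds Oct factors at immunoglobulin promoters (ENSMUSG00000032053, chromosome 9, 51213708 to 51240080). It had 110, 72 and 113 counts in carnosine and 37, 56 and 42 counts in saline. These corresponded to 9.12, 6.93 and 8.57 CPM in carnosine and 3.56, 5.44 and 3.18 CPM in saline. The highest saline library, replicate 2, stayed under the lowest carnosine library, also replicate 2. Their exact intervals overlapped (4.11 to 7.06 CPM in saline, 5.42 to 8.72 CPM in carnosine). The gene rose by 1.03 on the log2 scale (SE 0.22, edgeR adjusted p = 0.0179), but missed the threshold without carnosine replicate 1 or 3 (adjusted p = 0.0575 and 0.0541) and without saline replicate 1 or 3 (0.0607 and 0.0569).

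Xbp1, the regulator of ER expansion (ENSMUSG00000020484, chromosome 11, 5520659 to 5525893), did not follow the other 3 regulators. It had 59.6, 81.2 and 54.8 CPM in carnosine, against 63.5, 55.7 and 63.6 CPM in saline. Carnosine replicate 2 was the highest library and carnosine replicate 3 the lowest, and the exact interval of carnosine replicate 2 (75.8 to 86.8 CPM) lay above those of the other 5. The log2 fold change was 0.09 (95% interval -0.24 to 0.43, edgeR adjusted p = 0.692), and -0.09 without carnosine replicate 2. Counts per gene do not separate the spliced from the unspliced form of its mRNA.

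Mzb1 encodes an ER protein that helps antibody chains to assemble and leave the ER (ENSMUSG00000024353, chromosome 18, 35647267 to 35649367). It had 75, 56 and 69 counts in carnosine and 36, 31 and 46 counts in saline. In CPM these were 6.22, 5.39 and 5.23 in carnosine and 3.46, 3.01 and 3.49 in saline. The groups did not overlap. The exact intervals of carnosine replicate 3 (4.07 to 6.62 CPM) and saline replicate 3 (2.55 to 4.65 CPM) overlapped. Mzb1 rose by 0.75 on the log2 scale (SE 0.15, edgeR adjusted p = 0.0136, and 0.0305 to 0.0467 without 1 library). DESeq2 did not call it (adjusted p = 0.0627). GENCODE M21 places another gene on the same strand over 695 of the 1215 exonic bases of Mzb1, so reads could be split between them. That gene, Gm50318 in the deposited table, had 29, 24 and 37 counts in carnosine and 23, 38 and 18 counts in saline (log2 fold change 0.09, edgeR adjusted p = 0.891).

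Derl3, a channel component that returns misfolded proteins from the ER for degradation (ENSMUSG00000009092, chromosome 10, 75893413 to 75895941), had 31, 32 and 32 counts in carnosine and 13, 22 and 26 counts in saline. In CPM it read 2.57, 3.08 and 2.43 in carnosine and 1.25, 2.14 and 1.97 in saline. The 2 groups did not overlap, yet the gene did not pass (log2 fold change 0.57, SE 0.24, edgeR adjusted p = 0.143), and its unadjusted p was 0.0455. The exact intervals of carnosine replicate 3 (1.66 to 3.42 CPM) and saline replicate 2 (1.34 to 3.23 CPM) overlapped.

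Fkbp11, a prolyl isomerase of the ER (ENSMUSG00000003355, chromosome 15, 98724366 to 98728198), had 3.57, 3.94 and 3.87 CPM in carnosine, against 4.23, 3.79 and 3.18 CPM in saline. The saline libraries enclosed the carnosine libraries. Its log2 fold change was 0.03 (95% interval -0.35 to 0.41, edgeR adjusted p = 0.922). It had 135 counts in all carnosine libraries and 125 in all saline libraries, and a difference inside this interval could not be told from none.

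Txndc5 encodes an ER thiol oxidoreductase of the protein disulfide isomerase family (ENSMUSG00000038991, chromosome 13, 38500079 to 38528824). It had 817, 1328 and 1784 counts, or 67.8, 128 and 135 CPM, in carnosine, against 1179, 1184 and 1429 counts, or 113, 115 and 108 CPM, in saline. Carnosine replicate 1 was the lowest library, and the other 2 carnosine libraries were the highest. The log2 fold change was -0.03 (95% interval -0.55 to 0.50, edgeR adjusted p = 0.951) with all libraries, and 0.22 without carnosine replicate 1, which passed the test (adjusted p = 0.0356). The spread between the carnosine libraries was 150 times that expected from counting, and 1.36 times between the saline libraries. On the opposite strand 3 genes overlap Txndc5, of which Bmp6 and Gm31834 reach its exons, and none had over 10 counts in a library.

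**Figure D2:**
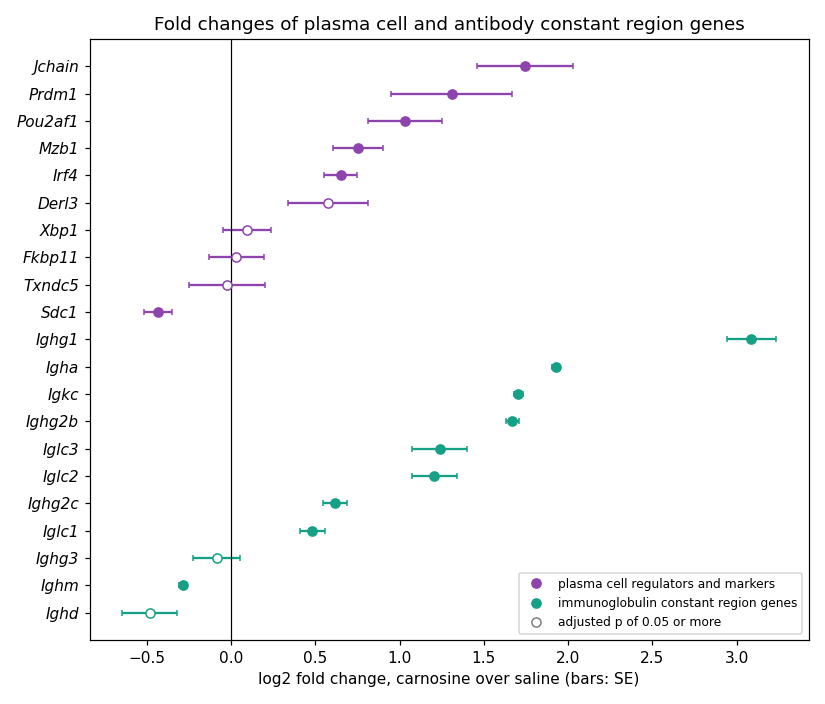
Log2 fold change, carnosine over saline, of the 10 plasma cell genes and of the 11 immunoglobulin constant region genes tested (points, with bars for the SE; open points did not pass an adjusted p of 0.05). Jchain lies beside Igkc and Igha, Xbp1, Fkbp11 and Txndc5 lie near 0, and Sdc1 and Ighm lie below 0.

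Jchain encodes the chain that links IgA and IgM into polymers (ENSMUSG00000067149, chromosome 5, 88519809 to 88527891), and it was the highest of the 10 genes per length. It had 3566, 5569 and 7082 counts in carnosine and 1632, 924 and 2124 counts in saline. These were 296, 536 and 537 CPM in carnosine, against 157, 89.7 and 161 CPM in saline. Every carnosine library was above every saline library, with replicate 1 the low one in carnosine and replicate 2 the low one in saline, both far outside the exact intervals of the other 2 in their group. The mean was 456 ± 139 CPM in carnosine and 136 ± 40.1 CPM in saline (SD, n = 3 each), a ratio of 3.36. Its rise of 1.74 on the log2 scale (SE 0.29, edgeR adjusted p = 0.00649) ranged from 1.52 to 1.97 when 1 library was left out, and was called each time. The spread between libraries was 507 times the counting expectation in carnosine and 126 times in saline.

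Sdc1 encodes syndecan-1, or CD138, the surface proteoglycan used to sort plasma cells and also found on epithelia (ENSMUSG00000020592, chromosome 12, 8771323 to 8793715). It went against the other called genes, with 367, 270 and 358 counts in carnosine and 403, 361 and 518 counts in saline. In CPM it had 30.4, 26.0 and 27.1 in carnosine and 38.8, 35.1 and 39.3 in saline. The groups did not overlap. The exact intervals of carnosine replicate 1 (27.4 to 33.7 CPM) and saline replicate 2 (31.5 to 38.9 CPM) overlapped. The gene fell by 0.44 on the log2 scale (SE 0.08, edgeR adjusted p = 0.0115). It stayed called without any 1 library (adjusted p 0.0128 to 0.0428).

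Levels were compared between genes on the deposited FPKM scale, which divides by gene length. The order in carnosine was Jchain (80.6 to 146 FPKM), Txndc5 (9.07 to 18.1), Xbp1 (10.1 to 15.01), Sdc1 (4.02 to 4.71), Mzb1 (2.86 to 3.40), Irf4 (2.15 to 2.45), Pou2af1 (1.77 to 2.33), Fkbp11 (0.808 to 0.894), Derl3 (0.577 to 0.732) and Prdm1 (0.327 to 0.405). Saline gave the same order, with Jchain at 24.5 to 44.0 FPKM, Txndc5 at 14.5 to 15.4, Xbp1 at 10.3 to 11.8 and Prdm1 at 0.0679 to 0.238. Neighbours whose libraries overlapped were Txndc5 and Xbp1, and Irf4 and Pou2af1, in carnosine, and Pou2af1 and Fkbp11 in saline. Lengths worked out from count, FPKM and the summed counts of a library ran from 1821 bases for Mzb1 to 8579 bases for Prdm1. The total behind the FPKM is not given and may differ from the summed counts. Exonic bases of GENCODE M21 were counted only for the genes that overlap another gene. The lengths exceeded them in each of these, Mzb1 (1821 against 1215), Pou2af1 (3897 against 2549) and Txndc5 (7443 against 4492). The other genes were not compared. Whether gene models or the library total made this difference was not tested.

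**Figure D3:**
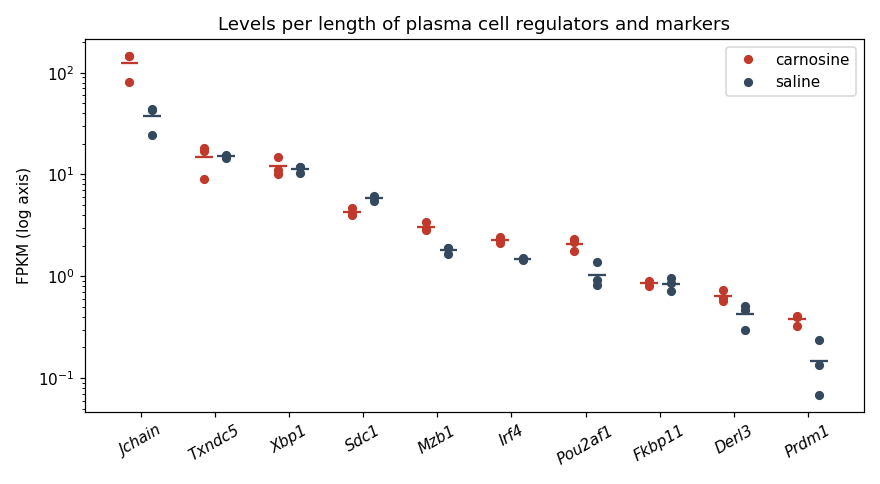
Deposited FPKM of the 10 genes in each library on a log axis, ordered by the carnosine mean (points are libraries, bars group means). Jchain stands above the other genes in both groups, and Prdm1 is lowest in both.

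Plasma cells carry large amounts of antibody RNA, so the genes were set beside it. Immunoglobulin genes of all classes took 0.582% to 0.587% of counts in carnosine and 0.193% to 0.195% in saline. Igha, the constant region of IgA, had 2250 ± 45.8 CPM in carnosine and 591 ± 2.89 CPM in saline (SD, n = 3 each), or 1.93 on the log2 scale (SE 0.02, edgeR adjusted p = 1.38e-08). Igkc, the kappa constant region, had 901 ± 14.5 CPM in carnosine and 276 ± 5.75 CPM in saline (SD, n = 3 each; 1.71 on the log2 scale, adjusted p = 5.82e-08). Ighm, the constant region of IgM, fell by 0.29 (adjusted p = 0.000436), to 266 CPM in carnosine, against 324 CPM in saline. Of 13 constant region genes listed, 11 were tested and 1 had no count in any library. In all, 8 of the 11 tested rose and 1 fell, in the fit of all libraries and without any 1 of them. Of all genes tested, 9.51% were called higher and 8.39% lower.

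Set against kappa RNA, Jchain did not separate the groups. It had 334, 589 and 590 counts per 1000 Igkc counts in carnosine, against 575, 317 and 590 in saline. The groups overlapped, and 4 of the 6 libraries lay between 575 and 590 (exact permutation test over libraries, two-sided, p = 0.6, or 0.632 after Benjamini-Hochberg adjustment over 20 comparisons, where 0.1 is the smallest p possible). Carnosine replicate 1 and saline replicate 2 were the low ones. The spread of Igkc between libraries was 2.75 times the counting expectation in carnosine and 1.28 times in saline, against 507 and 126 times for Jchain. Jchain thus did not follow Igkc between the libraries of a group. With such a spread in Jchain, the overlap does not show that its level follows kappa RNA. Per 1000 Igha counts Jchain had 131, 243 and 234 in carnosine and 265, 153 and 271 in saline (exact permutation p = 0.5).

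Per antibody count the other genes, except Prdm1, had lower values in carnosine. Irf4 had 13.7, 12.5 and 14.3 counts per 1000 Igkc counts in carnosine, against 28.9, 27.5 and 27.8 in saline. Mzb1 had 7.04, 5.93 and 5.75 in carnosine and 12.7, 10.6 and 12.8 in saline. Pou2af1 had 10.3, 7.62 and 9.42 in carnosine and 13.05, 19.2 and 11.7 in saline. Prdm1 had 3.19, 3.81 and 3.83 in carnosine and 4.23, 2.06 and 7.498 in saline, where the groups overlapped (exact permutation p = 0.7). For the 8 genes other than Jchain and Prdm1 the groups did not overlap with either denominator. Since mean CPM of Igkc was 3.26 times as high in carnosine as in saline, a gene at equal CPM in both groups comes to a ratio of 0.307 per Igkc count, and Fkbp11 (0.311) and Txndc5 (0.300) stood there. The separation thus follows from the denominator for a gene that does not change. A gene that rose less than Igkc also comes out lower, as Pou2af1, Mzb1 and Irf4 did. No p is given for these separations. The mean ratio to Igkc, carnosine over saline, was 1.02 for Jchain, 0.786 for Prdm1, 0.623 for Pou2af1, 0.518 for Mzb1, 0.480 for Irf4 and 0.227 for Sdc1.

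**Figure D4:**
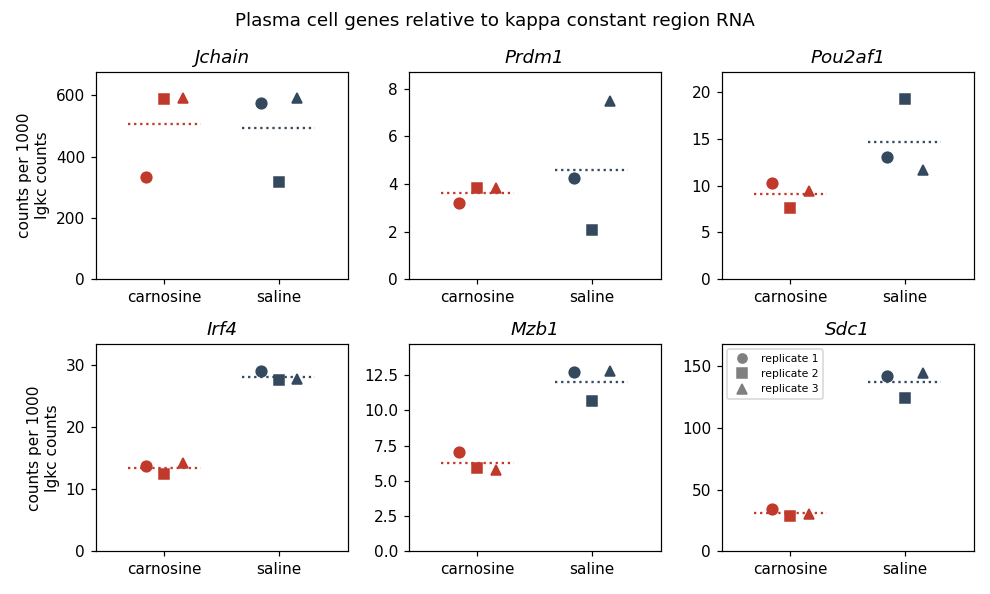
Counts of 6 genes per 1000 counts of Igkc in each library (y axis from 0; marker shape gives the replicate, dotted lines the group mean). The Jchain and Prdm1 libraries overlap between the groups, whereas those of Pou2af1, Irf4, Mzb1 and Sdc1 are lower in carnosine. A gene that rose less than Igkc comes out lower on this scale.

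Of 18 other genes used by plasma cells that were tested, 3 rose and 1 fell, with a median log2 fold change of 0.02. That is 22.2% called, near the 17.9% of all genes tested. Prdx4, a peroxidase of the ER, rose by 0.69 (edgeR adjusted p = 0.000585), Ell2, an elongation factor that favours secreted antibody mRNA, rose by 0.34 (0.0189), and the p53-induced gene Trp53inp1 rose by 0.26 (0.0162). Sdf2l1, a partner of ER chaperones, fell by 0.23 (0.0205). Without carnosine replicate 3, saline replicate 2 or saline replicate 3, only 1 rose and 0 fell in each fit. Tnfrsf17, the BCMA receptor of long-lived plasma cells, was under the filter with 4, 6 and 7 counts in carnosine and 2, 3 and 8 counts in saline. Fcrl5 had 2 counts in carnosine replicate 2 and 0 in every other library.

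Of 58 genes of ER translocation, folding and degradation tested, 8 rose and 8 fell. That is 27.6% called, beside 17.9% of all genes, which also divided nearly evenly (9.51% higher, 8.39% lower). The list had a median log2 fold change of 0.02, and its summed level was 9319 to 9803 CPM in carnosine and 9556 to 9798 CPM in saline. The signal peptidase subunit Spcs3 had 182 ± 3.32 CPM in carnosine and 150 ± 2.86 CPM in saline (SD, n = 3 each), and rose by 0.27 (edgeR adjusted p = 0.00152). The translocon-associated Ssr4 rose by 0.37 (0.00408). The chaperone Calr fell by 0.23 (0.000198), and Ern1, which encodes the IRE1 sensor that splices Xbp1 mRNA, fell by 0.24 (0.00373). Without carnosine replicate 1, saline replicate 1 or saline replicate 2, 5 rose and 4 fell in each fit, and 8 rose and 5 fell without carnosine replicate 2.

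B lineage genes from before the plasma cell stage had list medians below 0, while 9.51% of all genes tested were called higher and 8.39% lower. Among 16 tested genes of the mature B cell program 1 rose and 4 fell (median log2 fold change -0.27). The adaptor Blnk fell by 0.70 (edgeR adjusted p = 0.0218). The Oct factor Pou2f2 fell by 0.32 (0.00910), and the class II gene H2-Aa rose by 0.24 (0.0419). Pax5, which Blimp-1 represses in B cells, had 5.005 CPM in carnosine and 6.38 CPM in saline (adjusted p = 0.193). With 1 library left out the number that fell was 2 to 3 and the number that rose 0. Of 10 early B cell genes 1 rose and 4 fell (median -0.32), led by Dntt, which adds bases at antigen receptor joints (-0.27, adjusted p = 0.00118). The one that rose was Cd93, a surface protein of early B cells and also of stem cells (0.14, 0.00946). The Wnt pathway factor gene Lef1 fell by 1.30 (0.0182), and the recombinase gene Rag1 fell by 0.82 (0.0219). In that list 1 rose in every fit with 1 library left out, whereas the number that fell was 1 without carnosine replicate 3 and 2 to 3 otherwise. At a threshold of 0.01, 1 rose and 1 fell.

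**Figure D5:**
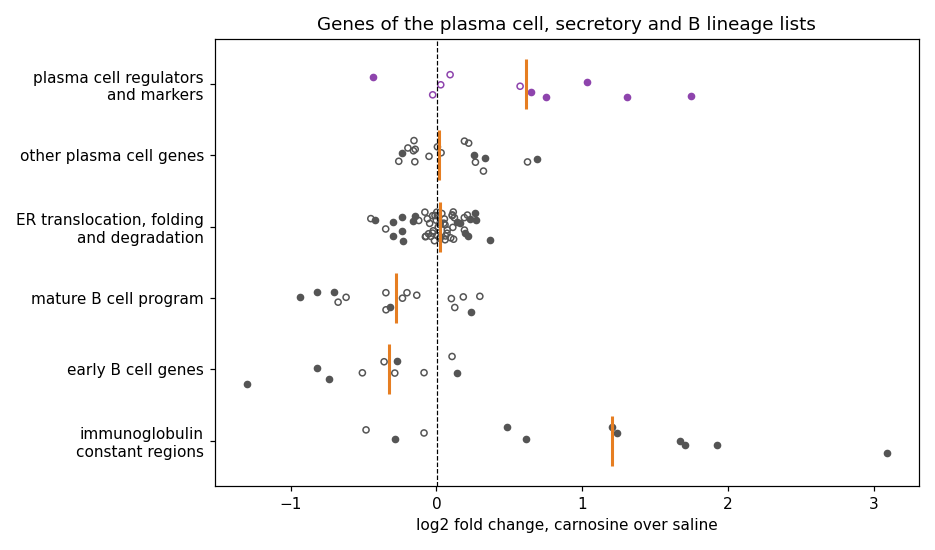
Log2 fold change, carnosine over saline, of each tested gene in 6 lists (filled points passed an adjusted p of 0.05, orange bars give list medians, the dashed line the median of all genes). The plasma cell regulators and markers and the immunoglobulin constant regions have medians of 0.61 and 1.21, the other plasma cell and ER lists 0.02, and the mature and early B cell lists -0.27 and -0.32.

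Marker lists of other cell types were short, and 17.9% of all genes tested were called. A list of 8 defining plasma cell markers, 4 of them among the 10 genes, summed to 3741 to 4036 CPM in carnosine and 1324 to 1398 CPM in saline. Most of that sum was Igha, Igkc and Jchain, described above, so it does not stand for the list as a set. None was at 0 in all libraries. Of 7 tested 5 rose (Igha, Igkc, Jchain, Mzb1 and Prdm1) and 2 fell (Sdc1 and Ighm), and Tnfrsf17 was under the filter. Erythroid markers summed to 133 to 138 CPM in carnosine and 39.3 to 47.6 CPM in saline, and 5 of 7 rose. Of the 8 macrophage markers tested 1 fell (1 to 2 without 1 library), and of the 3 for basophils and mast cells 2 fell. Macrophage markers summed to 43.4 to 46.3 CPM in carnosine and 61.6 to 64.6 CPM in saline, and basophil and mast cell markers to 15.5 to 16.9 CPM in carnosine and 30.6 to 33.7 CPM in saline. NK cell markers (1 of 3 tested fell) summed to 73.6 to 78.7 CPM in carnosine and 81.6 to 84.8 CPM in saline, and plasmacytoid dendritic cell markers (1 of 6 fell) to 294 to 309 CPM in carnosine and 327 to 387 CPM in saline. T cell markers (48.5 to 51.0 CPM in carnosine, 51.0 to 58.6 CPM in saline), megakaryocyte markers (89.4 to 95.6 CPM in carnosine, 92.6 to 97.5 CPM in saline) and neutrophil markers (4.32 to 12.7 CPM in carnosine, 3.30 to 7.28 CPM in saline) overlapped, with 1 of 4, 1 of 4 and 0 of 3 tested lower and 0 higher. The calls for NK and T cell markers were lost in every fit with 1 library left out, and those for plasmacytoid dendritic cell and megakaryocyte markers numbered 0 to 1 in such fits. The part of any of these cells in the changes of the 10 genes was not tested.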

How the data were processed

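Poly-A RNA of 6 libraries was sequenced as stranded read pairs, per the labels' protocols. GRCm38, CASAVA 1.8, HISAT2, StringTie and edgeR are named in the submitters' processing notes; the sources used here do not give their order, options, strand setting or annotation release. The deposited table holds, per the file headers, a raw count and an FPKM of each gene in each library, and the counts were used unchanged.

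Counts were scaled by TMM, filtered with filterByExpr and tested in edgeR 4.0.16 (R 4.3.3) by its quasi-likelihood F test, two-sided, over all 6 libraries, with Benjamini-Hochberg adjustment over 15298 genes. SE is the fold change over the root of F. On counts simulated for this comparison (15112 genes kept) the test recovered 70.6% of changes of 0.5 on the log2 scale and 100% of changes of 1. Changes were put only into genes above a mean count that Prdm1 and Derl3 did not reach. All genes were given the same median dispersion, whereas Jchain and Txndc5 had spreads of 507 and 150 times the counting expectation in carnosine. The shares recovered do not extend to these genes. Alternatives used DESeq2 1.42.0 and limma 3.58.1 (voom, and trend on FPKM), other scalings, filters and thresholds, a replicate block and fits without 1 library.

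The genes and lists were chosen with earlier results of these data known. Named were the 10 genes, up to 4 members of a list with the smallest p, the 5 most abundant constant region and V genes, the 3 closest profiles of each called gene, and, chosen after their values were seen, Pax5, Tnfrsf17, Fcrl5, Cd34, Flt3 and the genes that overlap the 10. Promoters are from RefSeq (GRCm38.p6), with entries for 9 of the 10 genes. For the mature B cell list, 1 gene that the rule names is not reported here.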

Additional observations from a re-analysis of the deposited data

How the results depend on the processing

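Under every scaling (relative log expression, upper quartile, library totals, immunoglobulin genes left out), both other filters and limma-voom, 5 of the 10 genes rose and 1 fell. The median log2 fold change of all genes tested moved from 0.0009 to -0.061 without a filter on low counts. It was -0.014 to 0.0015 under the other settings just named. Irf4 and Jchain were called in all 18 alternatives. Mzb1 was lost with DESeq2 (0.75, adjusted p = 0.0627) and Prdm1 with limma-trend on log2(FPKM + 0.1) (1.01, adjusted p = 0.05005). At a threshold of 0.01, 2 of the 10 rose and 0 fell, with Prdm1 (1.31), Pou2af1 (1.03), Mzb1 (0.75) and Sdc1 (-0.44) no longer called; 603 genes of all rose and 504 fell, 19 and 9 in the fixed lists, and 3 V segments fell. The labels do not pair the replicates, and same-numbered libraries did not deviate together (correlations -0.05, -0.05 and 0.02). With the replicate block 3 of the 10 rose, Prdm1 (1.37, adjusted p = 0.0676) and Pou2af1 (1.04, 0.0561) were lost, 946 genes rose and 810 fell, and 17 in the fixed lists fell. DESeq2 called 773 genes higher and 775 lower, against 1455 and 1283 with edgeR. V segments that fell numbered 5, and 11 without a filter, 3 with DESeq2 and 8 with either FPKM fit. The cause of these differences was not tested.

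Leave-one-out fits gave 3 to 4 of the 10 genes higher, 927 to 1012 genes rising, 820 to 904 falling, 14 to 19 falling in the fixed lists and 3 to 6 V segments falling. The fold change ranged over 0.99 to 1.89 for Prdm1, 0.87 to 1.29 for Pou2af1, -0.092 to 0.20 for Xbp1 (below 0 without carnosine replicate 2), -0.21 to 0.22 for Txndc5 (above 0 without carnosine replicate 1) and -0.082 to 0.13 for Fkbp11 (below 0 without saline replicate 3). Depth limits Prdm1, Derl3 and Mzb1 most, with 45, 61 and 113 counts in all saline libraries.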

Other observations

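The profiles over the 6 libraries that came closest to those of the called genes were sought among 11342 other genes, as the root-mean-square difference of centred log2 CPM. For Jchain these were Cacna1h, a T-type calcium channel gene (0.21), and the kappa V segments Igkv8-24 (0.25) and Igkv4-53 (0.28). For Prdm1 they were Igkv12-38 (0.20), Rnf128 (0.25) and Dlg5 (0.25), and for Pou2af1 Atp1b2 (0.14), the heavy chain segment Ighv1-66 (0.14) and Sptb, the erythroid spectrin gene (0.15). Mzb1 came closest to the proton channel gene Hvcn1 (0.07), Prdx4 (0.07) and the mTOR inhibitor gene Deptor (0.07), Irf4 to Stk17b, Dhx40 and Plk2 (0.05 each), and Sdc1 to Zfp455 (0.02), Nim1k (0.05) and Rfx1 (0.05). The search took genes that share the group difference, so likeness here says nothing of shared control.

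Of 346 antibody V segments in the table, 140 had no count in any library and 155 passed the filter on low counts. Of these 155, 123 were called higher in carnosine and 5 lower, while 9.51% of all genes tested were called higher and 8.39% lower. A segment can pass the filter through its counts in a single group, which favours calls toward that group, so the 123 do not describe V segments at large. Without the filter 133 rose and 11 fell. Igkv1-117, the most abundant, had 120, 129 and 125 CPM in carnosine and 11.4, 13.3 and 11.1 CPM in saline. Igkv8-19 had 496, 491 and 562 counts in carnosine and 10, 9 and 10 counts in saline, close within each group and far apart between them.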
